A study of Mus musculus with 4 samples.

Results

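The genes for the proteins of the cytosolic ribosome were examined in the infarcted left ventricle of KDM5B knockout (KO) and wild-type (WT) mice. Members were taken by name, as probes annotated to a gene called Rpl or Rps with a number and at most 1 of the endings a, l, x or y, to Rplp0, Rplp1 or Rplp2, or to Rpsa. That rule used no measured value and found 80 genes of 27376 gene names on the array, with 137 of 41174 probes. Each gene was represented by its brightest probe, by the mean log2 processed signal of 4 arrays. The members comprised 46 genes of the large (60S) subunit, 31 genes of the small (40S) subunit and the 3 paralogues Rpl3l, Rpl39l and Rps27l.

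The cytosolic ribosome translates nuclear-encoded mRNA. Its small subunit binds and decodes the mRNA, and its large subunit forms the peptide bond. The proteins are needed in near equal numbers, and their mRNAs share a pyrimidine-rich 5′ end through which the kinase mTORC1 controls their translation. A few members have paralogues with restricted expression. Rpl3l replaces Rpl3 in heart and skeletal muscle fibres, Rpl39l is best known from testis, and Rps27l is induced by p53. Heart muscle enlarges its pool of ribosomes when it grows, and dividing or secreting cells of a healing infarct also carry many ribosomes.

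RNA came from the left ventricle at 7 days after the left anterior descending artery was tied off for good. The mice were reported as male and as 8 to 10 weeks old at surgery. The KO mice, on a C57BL/6 background, lacked Kdm5b function in the whole animal through a CRISPR/Cas9 deletion that removes the part coding for the catalytic JmjC domain and shifts the reading frame, so the deletion is not restricted to one cell type. WT mice were controls that underwent the same infarction. Each group had 2 one-colour arrays, numbered 2 and 3 in the sample titles, and KDM5B, a demethylase of lysine 4 of histone H3, was the only named difference between them. Nothing in the labels says whether the arrays of a group came from single animals or pools, so p-values measure only the spread between these samples.

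All 4 arrays shared 1 slide, with each genotype on neighbouring positions, so slide position and genotype cannot be told apart. The arrays differed in ways the genotype labels do not give. The inactive-X transcript Xist was bright on both arrays numbered 2 (14.13 for WT and 13.24 for KO, log2 before scaling) and at the background on both numbered 3. The Y-linked Ddx3y showed the opposite pattern, although all samples are labelled male, so number 2 and number 3 are kept apart throughout. The 15 cardiomyocyte markers had a mean level of 6.46 and 5.36 on WT 2 and 3 and 7.46 and 4.57 on KO 2 and 3. All levels below are log2 signal minus the 75th percentile of that array, so that 0 marks the 75th percentile and a difference of 1 is a doubling. The defining markers of heart muscle were present on every array, and fewer cells of a type and less RNA per cell cannot be told apart in such samples. The targeted gene Kdm5b read -0.87 and -1.81 on WT 2 and 3 and -2.40 and -2.26 on KO 2 and 3. The difference of -0.996 ± 0.400 (SE) was not called (limma, adjusted p = 0.9999). A second, dimmer probe gave -1.19 ± 0.45 and was not called either. On both probes the KO arrays lay below both WT arrays (10.9% of all tested probes). Whether either probe lies in the deleted part was not examined, so these values do not check the labels.

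The sequence around the start is shown first, because a run of pyrimidines there is the feature by which this gene group is known, and genes with and without such a run are printed. RefSeq (GRCm38.p6) gave promoter windows for 59 of the 80 genes, and the other 21 were not matched. The lines below print 30 bases before and 20 bases from the RefSeq start, sense strand, with the longest stretch of C and T in the window from 10 bases before to 10 bases after the start in capitals where it has at least 6 letters. A run that goes on outside that window is counted and marked only inside it, as for Rps27l. Rps18 lies at chr17:33955646-33955695 (minus strand), Rps27 at chr3:90213629-90213678 (minus), Rps6 at chr4:86857348-86857397 (minus), Rplp2 at chr7:141447621-141447670 (plus), the first of 2 windows of Rps27l at chr9:66946056-66946105 (plus), Rpl39l at chr16:10170198-10170247 (plus), the first of 2 windows of Rpl3l at chr17:24727796-24727845 (plus), Rplp0 at chr5:115559437-115559486 (plus), Rpl39 at chrX:37085203-37085252 (minus) and Rps4x at chrX:102189372-102189421 (minus).
Rps18: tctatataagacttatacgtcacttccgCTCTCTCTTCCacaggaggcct
Rps27: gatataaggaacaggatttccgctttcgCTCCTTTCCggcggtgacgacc
Rps6: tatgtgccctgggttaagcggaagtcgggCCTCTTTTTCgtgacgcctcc
Rplp2: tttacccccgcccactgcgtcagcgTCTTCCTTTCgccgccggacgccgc
Rps27l: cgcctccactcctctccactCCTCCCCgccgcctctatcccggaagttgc
Rpl39l: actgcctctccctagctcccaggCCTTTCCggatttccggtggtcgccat
Rpl3l: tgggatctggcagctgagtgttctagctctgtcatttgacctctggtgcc
Rplp0: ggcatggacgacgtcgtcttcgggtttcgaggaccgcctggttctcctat
Rpl39: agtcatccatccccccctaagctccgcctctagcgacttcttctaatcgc
Rps4x: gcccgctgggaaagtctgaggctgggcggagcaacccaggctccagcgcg

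In Rps18, Rps27 and Rps6 the run started at the base before the RefSeq start or the one before that. Of the 59 genes with a window, 31 had such a run in at least 1 of their windows. Among those without were Rpl3l, whose longest stretch was 4 letters in both windows, Rplp0 with 4, Rpl39 with 5 and Rps4x with 3. These lengths hold only for the searched stretch around the RefSeq start. The printed line of Rpl39 has a longer run that crosses the downstream edge of that stretch, and the line of Rplp0 has one just beyond it. A run of at least 6 letters was present in 32 of 71 member windows (45.1%) and in 20.2% of all 32851 windows. Over the whole 300-base windows and both strands, CCGGAAG, a core sequence bound by ETS factors, occurred in 36.6% of member windows against 8.86% of all. The letters CTTTCC, which can themselves be part of a C and T run, occurred in 49.3% against 26.6%, TATAA in 23.9% against 24.9%, and CACGTG, the E-box bound by Myc, in 11.3% against 7.15%. These are matches of letters and not measured binding sites.

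The first question was whether the group as a whole differed between KO and WT hearts. All 80 members were measured, well above background on all 4 arrays, and all were tested. No member passed the calling rule, which asks for a fold change above 2 with adjusted p below 0.05 (limma, 0 of 80; 0% of all 28292 tested probes), and 1 member had an unadjusted p under 0.05, against 1.45% of all tested probes. The count of members with a fold change over 2 was also 1, Rpl39l, higher in KO, where the background was 1% higher and 2.35% lower. The same 0 calls were made in every alternative of the limma fit.

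The members, each read by its brightest probe, held together closely. Their KO minus WT differences had a median of 0.108 and an interquartile range of 0.123, and those of all tested probes had a median of 0.017 and an interquartile range of 0.427. A narrow range was not particular to the members, at 0.138 for 76 mitochondrial ribosomal protein genes, 0.187 for translation factors and 0.206 for ribosome biogenesis factors. Brightness was not matched either, since 26976 tested probes of other genes had a mean level under 4, where only 7 members did. Of the 77 members other than the 3 paralogues, 73 differed by less than 0.3, compared with 64.7% of all tested probes. The median was 0.103 in the 60S genes and 0.105 in the 40S genes, so neither subunit stood apart. The standard error of a member's difference ran from 0.20 to 2.17 with a median of 0.24, and the difference was smaller than its standard error in 67 of 80. Probes of the same gene did not always agree. Of 41 members with several tested probes, 17 had probes whose KO minus WT differences had opposite signs. The median range between the tested probes of a member was 0.127.

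**Figure D1:**
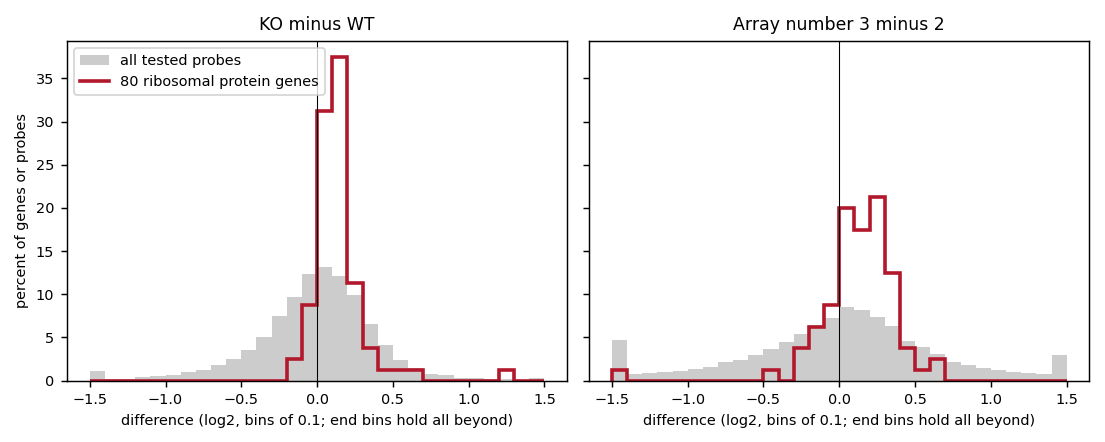
Distribution of differences (x axis, log2, bins of 0.1, end bins holding all values beyond) as a percent (y axis) of the 80 ribosomal protein genes (red line) and of all 28292 tested probes (grey), for KO minus WT on the left and array number 3 minus 2 on the right. The ribosomal protein genes form a narrow peak around 0.108 on the left and a wider one around 0.157 on the right.

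On the 75th percentile scale 71 members were higher and 9 lower in KO, against 52.3% higher among all tested probes. For 26 members the KO arrays were both higher than either WT array (13.1% of all tested probes), and for 0 both were lower (10.9%). KO 3 was the highest of the 4 arrays for 68 members, against 32.0% of all tested probes, and KO 2 was the highest for 12. KO 2 was the lowest array for 39 members, near the 41.5% of all tested probes. The median level of the members was 6.64 and 6.67 on WT 2 and 3 and 6.64 and 6.94 on KO 2 and 3. Within number 2 the median KO minus WT difference was -0.037 with 37 members higher (51.1% of all tested probes), and within number 3 it was 0.217 with 79 members higher (52%), the exception being Rpl3l. Each of these comparisons has 1 array per genotype and no replicate. Without KO 2 the single KO array lay above both WT arrays for 76 members (39.7% of all tested probes) and below for 1 (34.3%), and without KO 3 it lay above for 30 (44.5%) and below for 39 (44.7%).

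**Figure D2:**
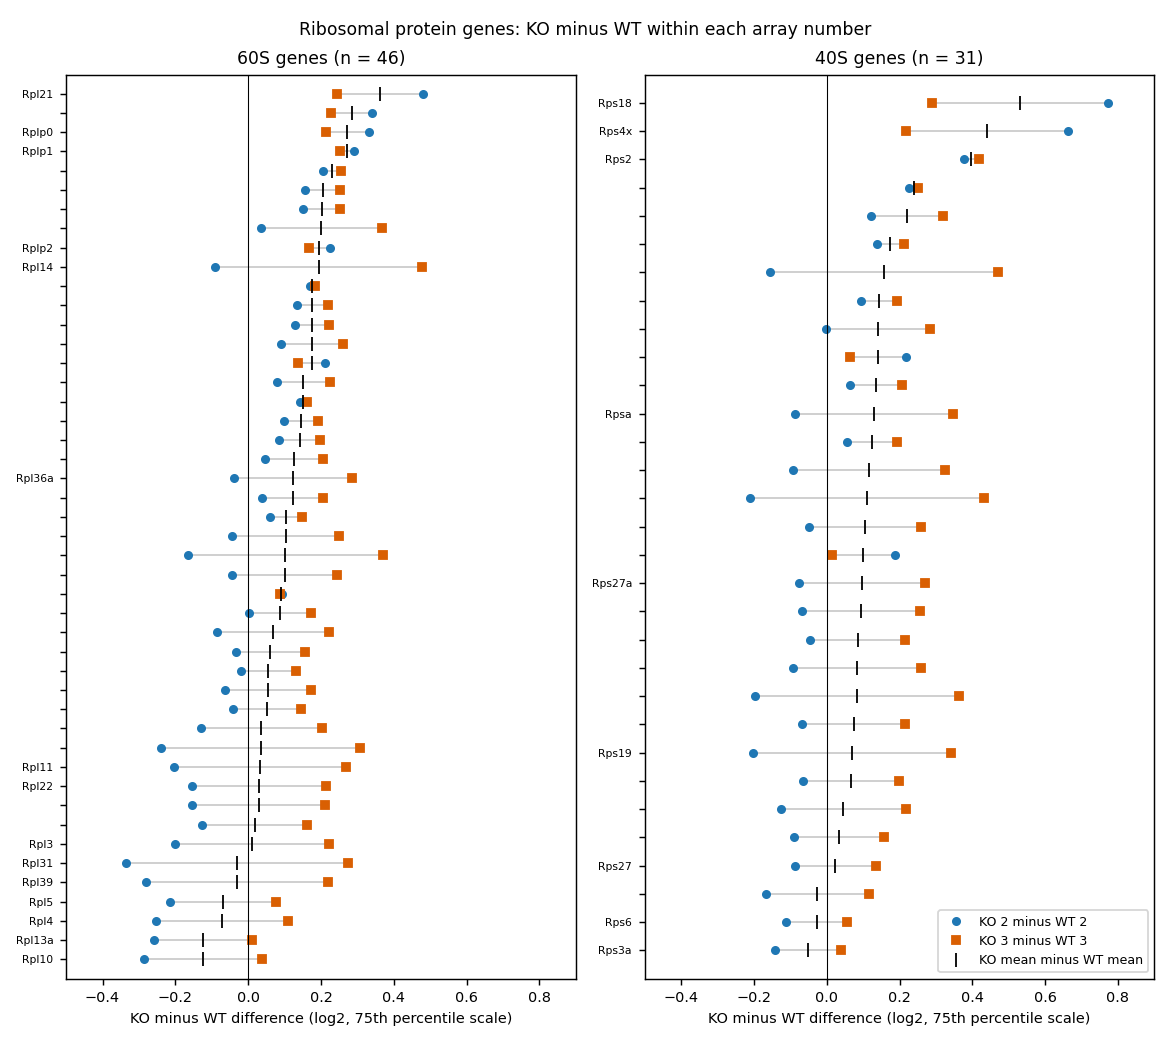
KO minus WT difference (x axis, log2, 75th percentile scale) of the 46 60S genes (left) and 31 40S genes (right), ordered by the difference of group means (black bars), with the difference within number 2 (blue circles) and number 3 (orange squares) and a label on the genes named in the text. Every orange square lies above 0, whereas the blue circles spread from -0.33 to 0.77.

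The sign of the group's median depended on how the arrays were scaled, so no direction can be given for the group. It was 0.108 after the 75th percentile shift, 0.137 after a median shift and 0.060 after normexp background correction, which itself moved the median of all tested probes to 0.132. It was -0.078 after cyclic loess, -0.178 after quantile normalization and -0.176 in the authors' values. Under quantile normalization 10 of 80 members were higher in KO, with the KO arrays clear above WT for 1 member (12.5% of all tested probes) and clear below for 1 (10.5%). The difference within number 3 stayed above 0 in all 6 scalings, from 0.054 to 0.217. Within number 2 it ran from -0.484 to 0.028.

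**Figure D3:**
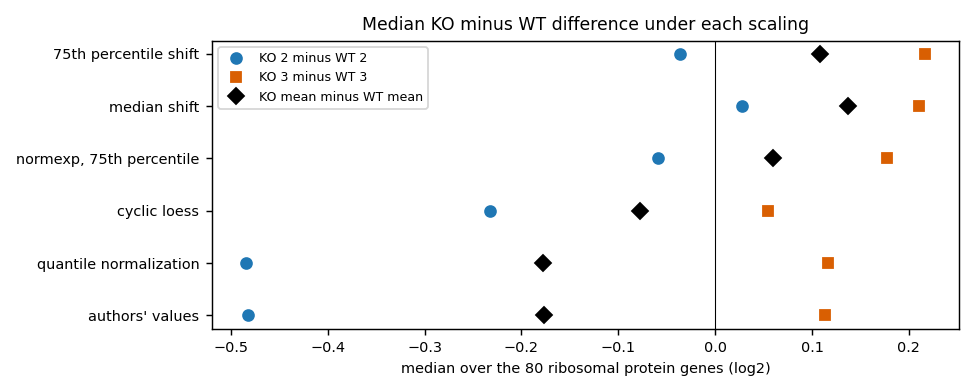
Median KO minus WT difference over the 80 ribosomal protein genes (x axis, log2) under 6 scalings (y axis), for number 2 (blue circles), number 3 (orange squares) and the group means (black diamonds). The black diamonds lie above 0 in the upper 3 scalings and below 0 in the lower 3, and the orange squares lie above 0 in all 6.

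The members' KO minus WT differences were also set out by brightness, and showed no steady order with it. The median KO minus WT difference was 0.193 for the 7 members with a mean level under 4, 0.067 for the 16 between 4 and 6, 0.101 for the 28 between 6 and 7, 0.117 for the 11 between 7 and 7.5 and 0.149 for the 18 above 7.5. Within number 2 the medians of these bins were 0.092, -0.099, -0.045, -0.021 and 0.073, so the dimmest and the brightest members were above 0. The KO arrays were clear above WT for 1, 2, 8, 4 and 11 members, in the same order. For tested probes of other genes in these bins the counts were 3475 of 26976, 155 of 950, 22 of 159, 2 of 32 and 5 of 43. Probes of other genes also differed by brightness. Those between 6 and 7 (159 probes) had a median KO minus WT difference of 0.307, those above 7.5 (43 probes) one of 0.262, and those under 4 (26976 probes) one of 0.010. KO 2 was the dimmest array, with a 75th percentile signal of 607.6 against 876.3 to 976.1 on the others. The part of brightness in the members' differences was not tested.

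To describe single members relative to the group, each array was also shifted by the median of the 80 members on it. This setting was added after the data were seen. The members' differences are then relative to one another, and 2 lay above in both KO arrays (3.86% of all tested probes) and 17 below (25.4%). The choice of scale still mattered, since over the 6 scalings the counts ran from 2 to 6 above and from 13 to 19 below. After this shift the 75th percentile and median shifts give the same values by construction. The authors' values nearly repeat quantile normalization. Counts over the 6 scalings, here and below, are therefore not 6 separate checks. Shares of all tested probes were taken only for the 75th percentile scale. Rpl39l was the single member above in all 6 scalings treated this way. The 8 members below in all 6 lay under the median by between 0.07 and 0.26, and Rpl10, Rpl5 and Rps3a were among them. These names were chosen after their values were seen, and no test was made of them.

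In the 60S subunit, the P-stalk was examined by itself. Rplp0, Rplp1 and Rplp2 form this flexible stalk, which recruits elongation factors and activates their GTPase. Rplp0 read 7.97 and 7.76 on WT 2 and 3 and 8.30 and 7.98 on KO 2 and 3, with the KO arrays narrowly above the WT arrays. Rplp1 read 8.41, 8.17, 8.70 and 8.42 on the same arrays, and Rplp2 read 7.90, 7.82, 8.13 and 7.98. All 3 genes were therefore higher in KO in both numbers, by group differences of 0.27 ± 0.25, 0.27 ± 0.24 and 0.20 ± 0.21 (SE, n = 2 arrays per group). Among all 80 members 36 were higher in both numbers, and among all 28292 tested probes 7025 were. None of the 3 stalk genes passed the test (limma, adjusted p = 0.9999), and each was below 0 under quantile normalization, at -0.10, -0.09 and -0.15. The other probes of Rplp0 gave 0.02 and 0.05, so the difference of Rplp0 rested on its brightest probe. By number, the P-stalk genes ran against most members, with number 3 minus 2 differences of -0.27, -0.26 and -0.11 while 63 of 80 members were higher at number 3. They were not alone in this, since Rpl21 (-0.41) and Rps2 (-0.12) were also lower. Tested probes of other genes with a mean level above 7.5, where the stalk genes lie, had a median of -0.48. The sign for the stalk genes also depended on the scale. Their median was -0.26 here and 0.27 under quantile normalization, where 0 of 3 were lower at number 3. Relative to the median of the members, their number 3 minus 2 differences were between -0.50 and -0.23 over the 6 scalings.

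Rpl5 and Rpl11 bind the 5S rRNA and, when ribosome assembly fails, hold back Mdm2 and so raise p53. Rpl5 read 6.59 and 6.66 on WT 2 and 3 and 6.38 and 6.74 on KO 2 and 3. Rpl11 read 7.08, 7.00, 6.88 and 7.27. Both genes had their lowest level on KO 2 and their highest on KO 3, and their KO minus WT differences were -0.07 ± 0.24 and 0.03 ± 0.25. A dimmer probe of Rpl5 gave 0.27, the opposite sign.

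The lowest KO minus WT differences of the 80 members were those of Rpl10 (-0.12 ± 0.28), Rpl13a (-0.12 ± 0.34), Rpl4 (-0.07 ± 0.28), Rpl5 and Rps3a (-0.05 ± 0.23). Rpl10, which joins the large subunit late and lies close to the peptidyl transferase centre, read 6.79 and 6.97 on WT 2 and 3 and 6.503 and 7.00 on KO 2 and 3. Its second probe gave a like difference of -0.10. Rpl13a, which is also released from the ribosome in inflammatory signalling, read 5.74, 6.11, 5.48 and 6.12. For each of the 5 genes KO 2 was the lowest array and KO 3 the highest, so the groups overlapped completely. Rpl22, an RNA-binding protein dispensable for translation itself, differed by 0.03 ± 0.24, and its paralogue Rpl22l1, which lies outside the naming rule, by 0.19 ± 0.35. Rpl36a, on the X chromosome, differed by 0.12 ± 0.22.

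Rpl21 had the highest difference of the 60S genes. It read 2.20 and 1.91 on WT 2 and 3 and 2.68 and 2.16 on KO 2 and 3, a difference of 0.36 ± 0.30, and WT 2 lay above KO 3. Its second probe gave -0.05.

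In the 40S subunit the highest values were those of Rps18, Rps4x and Rps2, which sit at the head, the body and the mRNA entry side of the subunit. Rps18 read 7.59 and 8.26 on WT 2 and 3 and 8.36 and 8.55 on KO 2 and 3. Its KO arrays lay above its WT arrays, and WT 2 was low by itself. The group difference was 0.53 ± 0.32, and a second bright probe of Rps18 gave only 0.07, from 6.62, 6.72, 6.46 and 7.01, and its dimmest probe gave -0.20. Rps4x, on the X chromosome, read 6.20, 6.90, 6.86 and 7.11, so that WT 2 was again low and the groups overlapped (0.44 ± 0.34).

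Rps2, the next highest of the 40S genes, gave like values on 2 probes and in both numbers. Its brightest probe read 7.82 and 7.68 on WT 2 and 3 and 8.20 and 8.10 on KO 2 and 3, a difference of 0.40 ± 0.21, which was 0.38 within number 2 and 0.42 within number 3. Its second probe read 6.17, 6.13, 6.51 and 6.55, a difference of 0.38 ± 0.20. On both probes the KO arrays were clear above WT, and a further probe of Rps2 was not well above background on any array. The difference did not pass the test (limma, adjusted p = 0.9999) and was 0.07 under quantile normalization and 0.17 under cyclic loess. Relative to the median of the members it was 0.26, and between 0.20 and 0.26 over the 6 scalings. That 0.26 was made up of 0.38 within number 2 and 0.15 within number 3. Treated this way, the KO arrays of Rps2 were clear above WT in 0 of the 6 scalings.

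The other 40S genes named beforehand were close to the group. Rps6, the substrate of S6 kinase, differed by -0.03 ± 0.26, Rps19, the gene most often mutated in Diamond-Blackfan anaemia, by 0.07 ± 0.28, and Rpsa, also known as a laminin receptor, by 0.13 ± 0.28. Rps27a, which is made as a fusion with ubiquitin, differed by 0.10 ± 0.22. Fau, which is made as a fusion with a ubiquitin-like protein and lies outside the naming rule, differed by 0.07 ± 0.23.

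Of the paralogues, Rpl39l and Rpl3l had the highest KO minus WT differences of all members, and Rps18, Rps4x, Rps2 and Rpl21 came before Rps27l. Rpl3l had the widest range of all 80 genes. Its level was 1.49 and -1.11 on WT 2 and 3 and 3.49 and -1.82 on KO 2 and 3, a 39.7-fold span between the KO arrays. It was thus high on both number 2 arrays and low on both number 3 arrays, while within number 2 KO was higher by 2.00 and within number 3 KO was lower by 0.71. The group difference of 0.65 ± 2.17 was far within the spread of the replicates (limma, adjusted p = 0.9999). Between numbers Rpl3l was lower at number 3 by 3.96 ± 0.76 (15.5-fold), with an unadjusted p of 0.0093 and an adjusted p of 0.418 (limma with genotype as a second term), the single member under 0.05 in that comparison, where 11.6% of all tested probes were.

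The order of the arrays for Rpl3l, with KO 2 highest, then WT 2, WT 3 and KO 3, was also that of the 15 cardiomyocyte markers, whose summed level on the linear scale was 4127, 2273, 1171 and 778 times the 75th percentile signal. All 15 markers were lower on both number 3 arrays (28.7% of all tested probes), and 12 had an unadjusted p under 0.05 in that direction (7.69%). The part of cardiomyocyte content in the Rpl3l values was not tested. Rpl3 itself read 5.01 and 5.28 on WT 2 and 3 and 4.81 and 5.50 on KO 2 and 3. Rpl3 was therefore lowest where Rpl3l was highest and highest where Rpl3l was lowest. Neither extreme was particular to Rpl3, since KO 2 was the lowest array for 39 members and KO 3 the highest for 68. The opposite order therefore does not show an exchange between Rpl3 and Rpl3l. The KO minus WT difference of Rpl3 was 0.01 ± 0.34 and its number 3 minus 2 difference 0.48 ± 0.26.

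The 60-base probes of the pair are shown because the opposite order would not be readable from probes that cross-hybridize. On mm9 the Rpl3 probe spans chr15:79910252-79910826 (minus strand) and the Rpl3l probe spans chr17:24872413-24872681 (plus strand), both more than their own length, so each crosses at least 1 intron.
Rpl3: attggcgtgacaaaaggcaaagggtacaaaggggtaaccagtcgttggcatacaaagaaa
Rpl3l: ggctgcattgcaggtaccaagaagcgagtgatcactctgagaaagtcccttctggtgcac

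The longest run of bases shared by these probes was 5, and the longest that the Rpl3l probe shared with any probe of the other 79 members was 10. Only probes were compared with probes. Neither probe was compared with the transcript of the other gene, so these runs do not show that the pair is free of cross-hybridization.

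Rpl39l was the member with the highest KO minus WT difference. It read -4.70 and -4.77 on WT 2 and 3 and -3.33 and -3.54 on KO 2 and 3, so the KO arrays were clear above WT, by 1.37 within number 2 and 1.23 within number 3. The difference of 1.30 ± 0.22 (2.46-fold) had an unadjusted p of 0.0048 and an adjusted p of 0.9999 (limma), the latter from 0.143 to 0.9999 over the alternatives. It was 0.88 after normexp. A second probe of Rpl39l was not well above background on any array, so the value rests on 1 dim probe. Rpl39, the common form, which lines the exit tunnel, read 6.97 and 7.04 on WT 2 and 3 and 6.69 and 7.26 on KO 2 and 3 and did not follow it (-0.03 ± 0.29).

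Rps27l read 5.07 and 4.86 on WT 2 and 3 and 5.23 and 5.32 on KO 2 and 3, with both KO arrays above both WT arrays on this scale (0.31 ± 0.22; limma, adjusted p = 0.9999). Relative to the median of the members, the difference of Rps27l was between 0.18 and 0.24 over the 6 scalings. The KO arrays were then clear above WT in 0 of the 6. Rps27 read 7.57, 7.54, 7.48 and 7.67 and differed by 0.02 ± 0.21. The file annotation placed the Rps27 probe on chromosome 9 and the Rps29 probe on chromosome 2, whereas RefSeq has both genes elsewhere, so which copy these 2 probes read is uncertain. Ribosomal protein genes have many processed pseudogenes, and cross-hybridization to such copies was not examined for any of the 80 members, so no value is shown to come from 1 locus alone. For 77 members the probe lay on the gene's RefSeq chromosome, and the Rpl10 probe had no position.

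**Figure D4:**
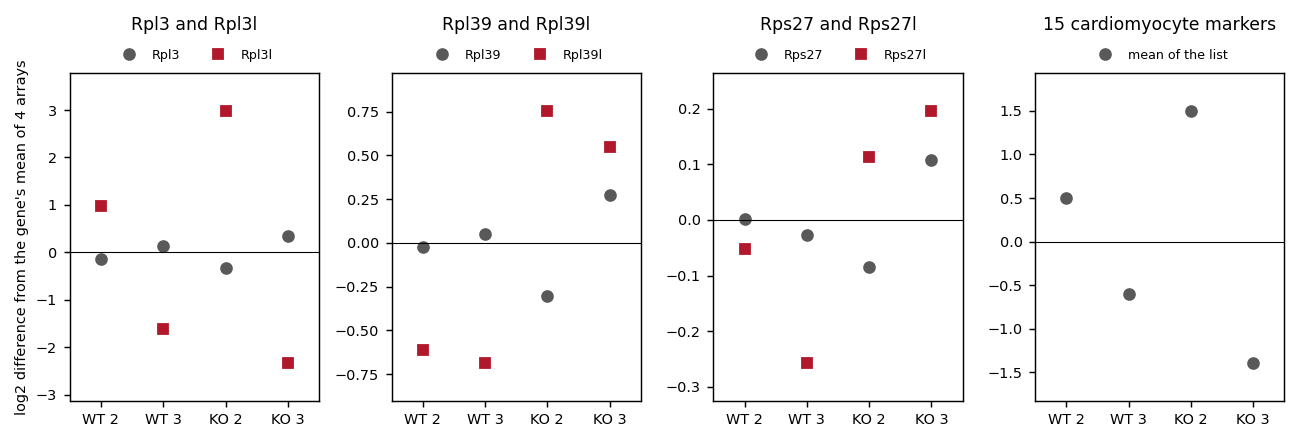
Difference of each array from the gene's own mean of 4 arrays (y axis, log2, a separate scale in each panel) for 3 pairs of a common ribosomal protein gene (grey circles) and its paralogue (red squares), and for the mean of 15 cardiomyocyte markers. Rpl3l and the cardiomyocyte markers share the order KO 2, WT 2, WT 3, KO 3 from high to low. Rpl39l is high on both KO arrays, and both Rpl3 and Rpl39 run opposite to Rpl3l. Among all members, KO 2 was the lowest array for 39 and KO 3 the highest for 68.

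Array number was the second comparison of the design. The median number 3 minus 2 difference of the members was 0.157 against 0.047 for all tested probes, with 63 members higher at number 3 (53.8% of all tested probes). Over the brightness bins used above, from dim to bright, the members' median fell steadily, from 0.308 to 0.283, 0.171, 0.087 and 0.072. For tested probes of other genes in these bins it was 0.051, -0.074, -0.397, -0.374 and -0.480. The part of brightness in these differences was not tested. Both number 3 arrays lay above both number 2 arrays for 37 members (32% of all tested probes) and below for 4 (28.7%). No member was called (limma, 0 of 80; smallest adjusted p = 0.418, 0% of all tested probes). The highest differences were those of Rpl31 (0.64 ± 0.29), Rpl14 (0.63 ± 0.28) and Rpl13a (0.51 ± 0.25), and the lowest those of Rpl3l, Rpl21 (-0.41 ± 0.25) and Rplp0. Rpl31, near the tunnel exit, read 1.27 and 1.60 on WT 2 and 3 and 0.94 and 1.88 on KO 2 and 3, and Rpl14 read 0.00, 0.35, -0.09 and 0.82. Both had their lowest level on KO 2 and their highest on KO 3, as had 4 of the marker lists, those of macrophages and monocytes, neutrophils, fibroblasts and myofibroblasts, and lymphocytes. The 11 macrophage and monocyte markers had a mean level of 2.96 and 3.33 on WT 2 and 3 and 1.70 and 3.65 on KO 2 and 3, and the 6 neutrophil markers one of -0.33, 0.15, -2.86 and 0.27. The 13 fibroblast and myofibroblast markers stood at 5.23, 5.41, 4.15 and 5.53 and the 12 lymphocyte markers at -2.28, -2.32, -4.18 and -1.90. The part of these cells in the members' values was not tested.

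The proteins of the mitochondrial ribosome, which is encoded separately and translates the few mRNAs of the mitochondrial genome, gave a contrast. All 76 genes of that list were tested and 0 were called. All 76 were higher in KO by group mean, against 52.3% of all tested probes, with a median of 0.42, made up of 0.83 within number 2 and 0.03 within number 3. The KO arrays were nevertheless clear above WT for only 4 of the 76 (13.1% of all tested probes), and for 2 to 4 over the 6 scalings. Both number 3 arrays lay below both number 2 arrays for 71 of them (28.7% of all tested probes), with a median of -0.84, and 16 had an unadjusted p under 0.05 in that direction (7.69%). The 15 cardiomyocyte markers moved with them, with a median of -2.07 for number 3 minus 2 and of 1.004 within number 2, and the part of cardiomyocyte content in the mitochondrial values was not tested. The cytosolic genes, with a median of 0.157, did not share that direction. All 76 were higher in KO in each of the 6 scalings, with medians from 0.32 to 0.45, and their number 3 minus 2 median ran from -0.84 to -0.75. Mrps5 had the highest KO minus WT difference of the mitochondrial list (0.97 ± 0.68) and Mrpl24 the lowest (0.15 ± 0.28).

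Of 40 translation initiation and elongation factors, 39 were tested, 0 were called, and 31 were higher in KO with a median of 0.14. The KO arrays were clear above WT for 20 of them (13.1% of all tested probes), and the median was 0.16 within number 2 and 0.15 within number 3. That sign depended on the scale, with a median of -0.03 under quantile normalization, where 16 were higher in KO. Their extremes were Eif4e, the cap-binding protein (0.44 ± 0.72), and Eif4a2, a helicase of the same complex (-0.38 ± 0.37). The 50 ribosome biogenesis factors had a median of 0.08, with both KO arrays above for 9 (13.1% of all tested probes) and below for 5 (10.9%), close to those shares, and ran from Rrp9, a U3 snoRNP protein (0.38 ± 0.47), to Gar1, an H/ACA snoRNP protein (-0.45 ± 0.30). Their median stayed above 0 in all 6 scalings, from 0.059 to 0.114. After normexp, however, it was 0.112, below the 0.132 of all tested probes. Among 21 tested genes of mTORC1 and Myc control, the median was 0.07, or -0.04 under quantile normalization, and the extremes were Mycn (0.54 ± 1.23) and the Myc antagonist Mxd1 (-0.39 ± 0.23). No gene of these lists was called.

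**Figure D5:**
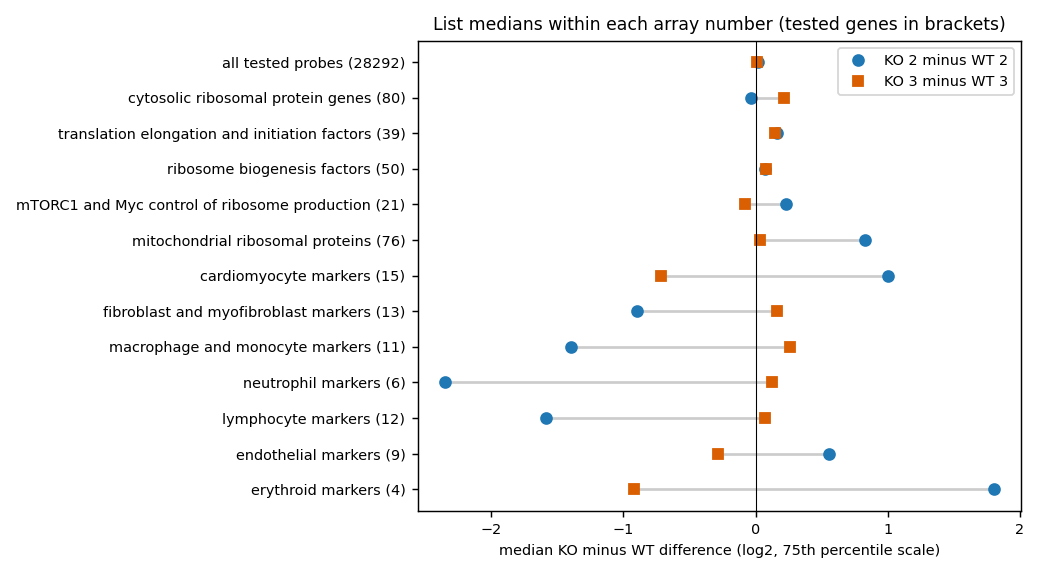
Median KO minus WT difference (x axis, log2, 75th percentile scale) of each gene list (y axis, number of tested genes in brackets) within number 2 (blue circles) and number 3 (orange squares). The cytosolic ribosomal protein genes lie at -0.037 and 0.217, the mitochondrial ones at 0.83 and 0.03, and the cardiomyocyte and leukocyte lists move much further within number 2.

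The remaining cell type lists are given for the same arrays. The median KO minus WT difference within number 2 and within number 3 was -0.90 and 0.16 for 13 fibroblast and myofibroblast markers, -1.58 and 0.07 for 12 lymphocyte markers, 0.55 and -0.29 for 9 endothelial markers and 1.80 and -0.92 for 4 tested erythroid markers. For macrophage and monocyte markers it was -1.40 and 0.26, for neutrophil markers -2.34 and 0.12, and for cardiomyocyte markers 1.004 and -0.71. The mean level of the 80 ribosomal protein genes ran only from 6.16 to 6.39 over the 4 arrays, a narrower range than that of any of these lists.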

How the data were processed

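Left ventricular RNA was hybridised to 4 one-colour Agilent arrays (Whole Mouse Genome). The authors deposited the intensity of every spot from Agilent Feature Extraction 10.7 (grid on mm9), background-subtracted and detrended. A deposited table of log2 values, of unstated normalization, matched the quantile-normalized log2 signal within 0.01 for 99.9% of values (median of each column 6.78) and served as an alternative.

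Control spots and flagged spots were dropped, and replicate spots of a probe averaged. No non-control spot was saturated, and 68.1% to 72.0% of probes exceeded background. The log2 processed signal was shifted by each array's 75th percentile. Probes well above background on both arrays of a group were tested (28292, with 12876 too dim and 6 without a value on an array) by limma 3.58.1 in R 4.3.3 (lmFit, eBayes) with Benjamini-Hochberg adjustment over all of them. Number 3 against 2 was fitted with genotype as a second term. The fit was tested on simulated data. With 2 arrays per group an exact permutation test cannot give a p under 0.333, and the number of arrays limits every value.

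Named by rule were 21 fixed genes, the 5 highest and 5 lowest KO minus WT and the 3 highest and 3 lowest number differences, and the extremes of each translation list. Rpl10l had no probe here, and a gene that the rule would name is not reported here. Members and lists were chosen with earlier results of these data known. All 80 symbols matched RefSeq, 1 by an older symbol. Alternatives were other scalings, background correction, filters, probe choices, array weights, a replicate block, the methods' t-test and each array left out.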

Additional observations from a re-analysis of the deposited data

Results flagged for a closer look

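The KO minus WT difference of Rpl3l was 2.00 within number 2 and -0.71 within number 3. Each value lay beyond the quartile of all tested probes on its side, in opposite directions, with 1 array per genotype behind each, and the difference between them was not tested. The cardiomyocyte markers had medians of 1.004 and -0.71 on the same arrays, and their part in the Rpl3l values was not tested.

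Xist is outside the ribosomal comparisons. Its unscaled log2 signal was 14.13 on WT 2 and 13.24 on KO 2, above that of the number 3 arrays, where it was not above background, although all 4 samples are labelled male. Each genotype holds 1 array of either kind, so a difference of sex between numbers and any other difference between numbers cannot be told apart.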

How the results depend on the processing

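No member was called in any limma setting or by the methods' t-test after correction, and 1 was called by that test without correction (88 of all tested probes). Under quantile normalization the members' median was -0.178, within number 2 -0.484 and for number 3 minus 2 0.517, with 1 member above and 1 below in both KO arrays. In the authors' values these were -0.176, -0.482, 0.511, 1 and 1, and under cyclic loess -0.078, -0.232, 0.332, 6 and 1 (number 3, 0.054). No share of all tested probes was taken for the cyclic loess counts. After a shift by the members' own median, added after the data were seen, 2 lay above and 17 below. The count with a fold change over 2 was 0 after normexp and 0 by the mean of all probes, which also left 0 at an unadjusted p under 0.05, and the dimmest probe put 2 members below. These changes follow from the scaling or the probe taken, and no other cause was tested.

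With each array left out in turn, the median ran from -0.025 to 0.224, the number 3 minus 2 median from 0.014 to 0.258, calls from 0 to 0, fold changes over 2 from 1 to 2, unadjusted p under 0.05 from 0 to 1, members above from 30 to 76 and members below from 0 to 39. Calls by number could not be fitted with an array left out. The replicate block made 0 calls and changed no call, with 602 against 410 of all probes at an unadjusted p under 0.05. The deviations of same-numbered arrays correlated (r = 0.569), but 2 pairs and the labels do not establish a pairing.

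Of 456 values of 38 named genes with 4 arrays, 49 reversed. Under quantile normalization these were Fau -0.31, Rpl11 -0.27, Rpl22 -0.18, Rpl22l1 -0.015, Rpl3 -0.17, Rpl36a -0.13, Rplp0 -0.096, Rplp1 -0.092, Rplp2 -0.15, Rps19 -0.21, Rps27 -0.31, Rps27a -0.19 and Rpsa -0.0089. In the authors' values they were Fau -0.31, Rpl11 -0.27, Rpl22 -0.18, Rpl22l1 -0.015, Rpl3 -0.17, Rpl36a -0.13, Rplp0 -0.092, Rplp1 -0.085, Rplp2 -0.16, Rps19 -0.20, Rps27 -0.30, Rps27a -0.20 and Rpsa -0.0097. Under cyclic loess they were Fau -0.16, Rpl11 -0.16, Rpl22 -0.12, Rpl3 -0.13, Rpl36a -0.052, Rplp2 -0.029, Rps19 -0.11, Rps27 -0.19 and Rps27a -0.089. After normexp they were Fau -0.0062, Rpl3 -0.053 and Rps27 -0.043, and after the median shift Rps6 0.0015. With the dimmest probe they were Rpl11 -0.35, Rpl21 -0.047, Rpl22 -0.12, Rpl5 0.27, Rps18 -0.20 and Rps3a 0.075, and with the mean of probes Rpl11 -0.16, Rpl22 -0.045, Rpl5 0.10 and Rps3a 0.012.

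With an array left out, 25 named genes reversed, ranging over Rpl3 -0.33 to 0.36, Rpl3l -2.01 to 3.30, Rpl4 -0.32 to 0.18, Rpl5 -0.25 to 0.11, Rpl10 -0.38 to 0.13, Rpl11 -0.16 to 0.23, Rpl13a -0.45 to 0.20, Rpl14 -0.27 to 0.65, Rpl22 -0.15 to 0.21, Rpl22l1 -0.21 to 0.58, Rpl31 -0.50 to 0.44, Rpl36a -0.00086 to 0.25, Rpl39 -0.32 to 0.26, Rps3a -0.18 to 0.079, Rps6 -0.23 to 0.17, Rps19 -0.20 to 0.34, Rps27 -0.073 to 0.12, Rps27a -0.029 to 0.22, Rpsa -0.13 to 0.39, Fau -0.069 to 0.21, Eif4e -0.34 to 1.23, Eif4a2 -0.79 to 0.029, Mycn -0.88 to 1.96, Mrpl24 -0.11 to 0.42 and Rrp9 -0.14 to 0.91.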
